A study of Mus musculus with 15 samples.

Results

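A set of 7 genes was followed across mouse embryonic stem cells (ESC) that lacked or regained high mobility group A (Hmga) proteins: Hmga1 and Hmga2 themselves, the RNA-binding genes Lin28a and Lin28b, and the RNA-binding genes Igf2bp1, Igf2bp2 and Igf2bp3. They were chosen by symbol, as the Hmga genes and the oncofetal genes linked to the let-7 microRNAs, and all 7 of 7 are among the 21662 genes counted in each of the 2 deposited tables. RNA was measured in 15 libraries of 6 groups. The first experiment (KO experiment) held wild type cells (WT, 3 libraries), Hmga1 KO cells (2), and KO cells given back Hmga1 (Hmga1 add-back, labelled Hmga1 rescue, 2) or Hmga2 (Hmga2 add-back, labelled Hmga2 rescue, 2). The second held another wild type set (WT 2, 3 libraries) and a complete deletion of the Hmga1 coding sequence (full deletion, 3).

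All lines share a mixed 129Sv-C57Bl/6 ESC background and were grown in serum with LIF, on feeder cells or on gelatine. In the KO, Cas9 cut at an intron-exon junction of Hmga1 and left a frame-shifted allele. In the full deletion, additional guides in both untranslated regions took out the coding part. The add-backs are biotin-tagged cDNAs driven by the CAG promoter from a single genomic site in the KO line, in a parental line that expresses the BirA ligase. Each mutant line is 1 clone, so a clone and its genotype cannot be told apart. Libraries of a group are separate samples, from at least 2 cultures harvested on different days; p-values measure the spread between these libraries.

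Hmga proteins are small chromatin proteins that hold AT-rich DNA through their AT-hooks. The let-7 microRNAs pair with the 3′ untranslated region (3′ UTR) of messenger RNAs and lower their output, and Hmga2, both Lin28 genes and the Igf2bp genes are textbook targets. Lin28a and Lin28b in turn bind let-7 precursors and block their maturation, which closes a loop that keeps let-7 low in stem cells, in the embryo and in many tumours. The 3 Igf2bp proteins bind messenger RNAs and control their stability, position and translation.

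The sequences that tie these genes together are the let-7 seed and its matches. Of 11 mature mouse let-7 family members in RefSeq (GRCm38.p6), 10 carry the same seed at bases 2 to 8; let-7j differs. The 4 below are shown because they differ outside a shared seed, which stands in capitals.
let-7a-5p: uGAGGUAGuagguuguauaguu
let-7d-5p: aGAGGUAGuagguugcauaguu
let-7g-5p: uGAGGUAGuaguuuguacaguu
miR-98-5p: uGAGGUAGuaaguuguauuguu

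The letters that pair with this seed, CTACCTC, were searched on the transcript strand of the longest annotated 3′ UTR of each gene (GENCODE M1, NCBIM37, the mm9 build of the files). All 7 genes held at least 1 match, 17 in all. Of 19915 genes with a 3′ UTR, 8.80% held a match, but the share depends on length, so each gene is set beside genes whose 3′ UTR length lies within 25% of its own. The shares below are of genes with at least as many matches, and each gene is counted in its own set. Hmga2 held 4 matches in 3014 bases, with a share of 0.141%. Lin28b held 4 in 4445 bases (0.282%), Igf2bp1 4 in 6337 bases (0.263%) and Lin28a 2 in 2775 bases (2.41%). Hmga1 (1183 bases), Igf2bp2 (1784 bases) and Igf2bp3 (2121 bases) held 1 each. Of genes of their length, 9.44%, 13.3% and 14.1% held 1 or more. Hmga2, both Lin28 genes and Igf2bp1 were thus the members with more than 1 match. A match describes the letters, not a site in use.

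The first match of each 3′ UTR is printed with its surroundings, match in capitals, so that the letters beside it can be compared. They lie at chr17:27700222-27700244 (plus strand, Hmga1), chr10:119801280-119801302 (minus, Hmga2), chr4:133561104-133561126 (minus, Lin28a), chr10:45100828-45100850 (minus, Lin28b), chr11:95823092-95823114 (minus, Igf2bp1), chr16:22059546-22059568 (minus, Igf2bp2) and chr6:49036786-49036808 (minus, Igf2bp3), all in NCBIM37.
Hmga1: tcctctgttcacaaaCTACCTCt
Hmga2: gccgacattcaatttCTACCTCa
Lin28a: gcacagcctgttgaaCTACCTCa
Lin28b: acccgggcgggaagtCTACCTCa
Igf2bp1: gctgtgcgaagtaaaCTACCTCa
Igf2bp2: acacacaaataaaagCTACCTCa
Igf2bp3: tgcatttttactcaaCTACCTCa

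**Figure D1:**
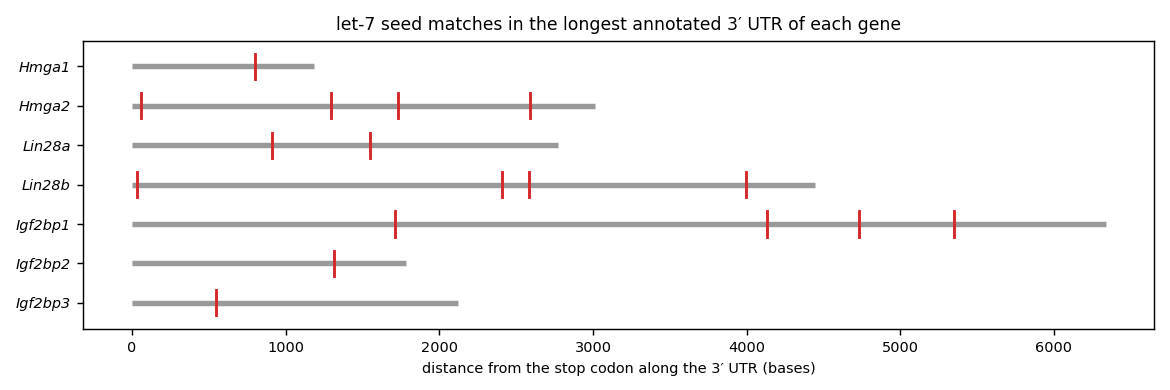
Position of each let-7 seed match (red) along the longest annotated 3′ UTR of the 7 genes (grey bar), in bases from the stop codon. Hmga2, Lin28b and Igf2bp1 have 4 matches each, Lin28a has 2, and Hmga1, Igf2bp2 and Igf2bp3 have 1.

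Levels are given as CPM, counts scaled to a library of 1000000 counts with trimmed-mean factors set within each experiment, and as CPM per 1000 exonic bases (RPKM) where genes are compared. Totals ran from 13465399 to 34952136 counts per library. A single library stands apart: WT 2 replicate b had a scaling factor of 0.752 (0.986 to 1.12 in the other 5 of its experiment) and 8.78% of its counts in its 10 top genes (4.67% to 5.38%), so the full deletion differences of the 7 genes are also given without it. The fit without that library called many more genes than the main one, so a small adjusted p there is not particular to these genes. How often groups do not overlap over all genes was not counted in either experiment. In the full deletion the targeted gene fitted the labels. Hmga1 was at 310 to 357 CPM in WT 2 and at 10.9 to 12.3 CPM in the full deletion.

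Per length, the WT cells carried 201 ± 13.1 RPKM of Lin28a, 156 ± 62.4 of Hmga1 and 132 ± 18.6 of Igf2bp1 (SD, n = 3). Far below came Igf2bp2 with 30.7 ± 6.23 RPKM, Igf2bp3 with 17.7 ± 2.16, Lin28b with 13.5 ± 2.77 and Hmga2 with 4.08 ± 1.33. The ranges of Lin28a and Hmga1, of Hmga1 and Igf2bp1, and of Igf2bp3 and Lin28b overlap, so the order of these neighbours is not clear from their spread, although Igf2bp3 was above Lin28b in each of the 3 libraries. In WT 2 the order was Hmga1 (166 ± 12.8), Igf2bp1 (130 ± 15.6), Lin28a (124 ± 18.3), Igf2bp2 (61.7 ± 22.3), Igf2bp3 (15.1 ± 0.170), Lin28b (11.04 ± 1.36) and Hmga2 (3.66 ± 0.537), again with Hmga2 last. There the ranges of Igf2bp1 and Lin28a overlap. The wild type sets come from separate experiments, and cells and experiment cannot be told apart where they differ.

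**Figure D2:**
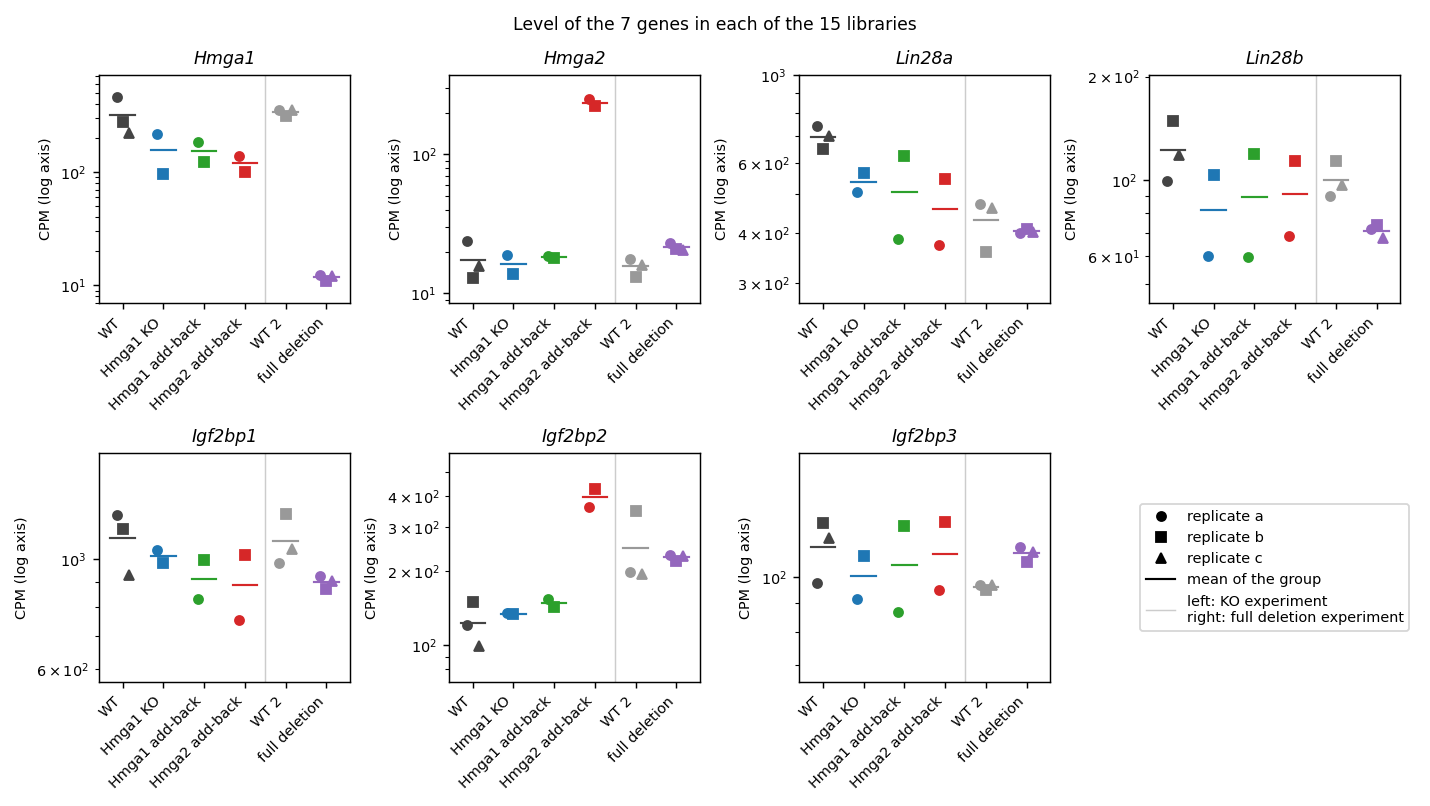
Level of each gene in every library in CPM (log axis, scaled within each experiment), by group; points are libraries, bars are group means. The Hmga2 add-back libraries stand above all other libraries of the KO experiment for Hmga2 (222 and 249 CPM) and Igf2bp2 (363 and 429 CPM), and the full deletion libraries stand at 10.9 to 12.3 CPM for Hmga1.

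A gene was called changed at an adjusted p under 0.01 with at least a 2-fold change (edgeR's quasi-likelihood test, Benjamini-Hochberg over all genes tested). In the KO experiment the replicate letter was a batch term, and batch c held WT replicate c alone. With that term in the model, differences from WT rest on WT replicates a and b, and a fit without either leaves 1 of them. Loss of Hmga1 by frame shift called 0 of the 7 genes, against 0.0216% of all 13912 genes tested. That share is 3 genes; without WT replicate b it was 62 genes, with 0 of 7 members still. At an unadjusted p under 0.05 the same test reached 2 of 7 (Hmga1 and Lin28b), against 12.6% of all genes. DESeq2's Wald test called 1 member (Hmga1) among 76 genes in all, and limma-trend 0 members among 3 genes. The question this comparison addresses is what changes when ESC, which have little Hmga2, lose Hmga1.

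Hmga1 RNA was at 464, 276 and 221 CPM in WT and at 217 and 96.1 CPM in the KO. The groups do not overlap, but the lowest WT library lies next to the highest KO library. Within batch a the KO library held 46.7% of the WT level and within batch b 34.8%. The fitted log2 difference was -1.29 (SE 0.17, adjusted p = 0.0534), not past the threshold. The difference was past it without the filter on low counts (adjusted p = 0.00825) and with DESeq2 (7.45e-10). With no replicate block it was -1.03 (adjusted p = 0.632). Without KO replicate a it was -1.59, and without KO replicate b -1.02. The full deletion gave a far lower level: 357, 310 and 355 CPM in WT 2 against 12.3, 10.9 and 12.1 CPM, a log2 difference of -4.86 (SE 0.13, adjusted p = 1.06e-05) and of -4.92 without WT 2 replicate b. That made Hmga1 the 1 of 7 genes called there, against 0.0687% of 13098 genes. Reads that aligned equally well in several places were put at 1 of them at random, and their part in the Hmga1 count was not tested.

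Giving back Hmga1 made no detectable difference to the count of the gene. Hmga1 stood at 184 and 123 CPM in the Hmga1 add-back. The log2 difference from the KO was 0.04 (95% interval -0.34 to 0.42, adjusted p = 0.9999). That from WT was -1.25 (SE 0.17, adjusted p = 0.0526). Over the settings other than leaving out a library, its adjusted p ran from 3.78e-09 (DESeq2) to 0.631. The batches go opposite ways against the KO, at 84.8% in a and 128% in b. If it holds the coding part alone, the added cDNA can add counts only over 324 of the gene's 2046 exonic bases. The methods do not state whether it holds more. In a count per gene its reads cannot be told apart from those of the mutant allele. The Hmga2 cDNA, of 327 coding bases, went with 249 and 222 CPM of Hmga2 in its add-back, against 18.9 and 13.8 CPM in the KO. By Western blot, the paper reports Hmga1 protein in the Hmga1 add-back at a level comparable with that of WT. Why the Hmga1 count did not rise was not tested. In the Hmga2 add-back, Hmga1 was at 138 and 101 CPM, the lowest of the KO experiment's groups in the mean. The log2 difference from WT was -1.59 (SE 0.17, adjusted p = 0.0122). It was past the threshold without the filter on low counts (0.00112) and with DESeq2 (1.13e-15). Over the settings other than leaving out a library, its adjusted p reached 0.336. Leaving out each library gave log2 differences of -1.79 to -1.39.

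Hmga2, the fetal paralogue that is nearly silent in ESC, was at 23.8, 12.8 and 15.8 CPM in WT and at 18.9 and 13.8 CPM in the KO. The groups overlap, with a log2 difference of -0.15 (95% interval -0.60 to 0.29, adjusted p = 0.794). In the full deletion it was at 23.2, 21.03 and 20.6 CPM against 17.7, 13.2 and 16.1 CPM in WT 2. Every deletion library lies above every WT 2 library, but the log2 difference of 0.46 (SE 0.14) had an adjusted p of 0.0685 and is under 2-fold; without WT 2 replicate b it was 0.35 with an adjusted p of 0.00740. The KO and the deletion effects on Hmga2 differed by -0.60 log2 (SE 0.25, adjusted p = 0.255).

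In the Hmga2 add-back Hmga2 rose to 249 and 222 CPM. That is a log2 change of 3.71 over WT (SE 0.20, adjusted p = 0.000242), 3.86 over the KO (SE 0.20, adjusted p = 0.000558) and 3.70 over the Hmga1 add-back (SE 0.20, adjusted p = 0.000732), and this was the sole member called in the last 2 comparisons, each against 0.00719% of genes tested. Within batches the level was 1315% and 1604% of that of the KO library. The call against the KO rests on both KO libraries: without replicate a its adjusted p was 0.131 and without replicate b 0.0891, at log2 changes of 3.91 and 3.81. Each such fit leaves 1 KO library, which is then assumed to vary like the other groups. Against the Hmga1 add-back it was lost without KO replicate a (0.0205), KO replicate b (0.0139) or Hmga2 add-back replicate b (0.0111). The coding part is 327 of 4276 exonic bases. If the transgene carries that part alone, a level per full exonic length understates the add-back transcript.

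**Figure D3:**
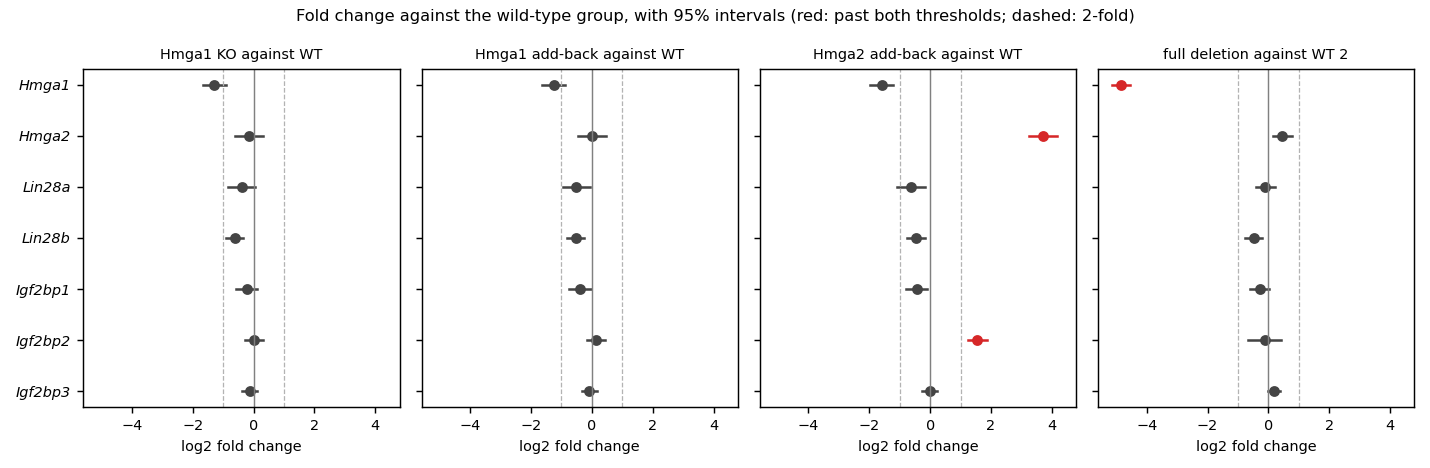
Fitted log2 fold change of the 7 genes against the wild type group of the same experiment, with 95% intervals; red marks genes past both thresholds, dashed lines 2-fold. Hmga1 in the full deletion (-4.86) and Hmga2 (3.71) and Igf2bp2 (1.56) in the Hmga2 add-back are past them.

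Lin28b, the Lin28 paralogue that holds let-7 precursors in the nucleus, was lower than the WT library of its batch in all 6 mutant libraries of the KO experiment, and lower than every WT 2 library in all 3 full deletion libraries, by less than 2-fold. WT held 99.3, 149 and 119 CPM, the KO 60.1 and 103, the Hmga1 add-back 59.6 and 119, and the Hmga2 add-back 68.6 and 114. The pooled groups overlap, because batch a was low and batch b high in every genotype. Within batch a the mutants held 60.1% to 69.1% of WT, and within batch b 69.4% to 79.8%. With the batch in the model the log2 differences were -0.63 in the KO (SE 0.12, adjusted p = 0.115), -0.53 in the Hmga1 add-back (SE 0.12, adjusted p = 0.159) and -0.47 in the Hmga2 add-back (SE 0.12, adjusted p = 0.154). These 3 differences share their WT libraries, and the add-backs were made in the KO line, so the 3 are not independent of each other.

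The full deletion, with its own wild type, held Lin28b at 72.0, 73.9 and 68.0 CPM against 89.9, 114 and 96.5 CPM. The groups do not overlap, and the log2 difference was -0.49 (SE 0.12, adjusted p = 0.0459), under 2-fold and not called. It was -0.39 (adjusted p = 7.33e-05) without WT 2 replicate b and -0.19 (adjusted p = 0.199) with summed counts as the only scaling. The KO and the deletion effects on Lin28b differed by -0.13 log2 (95% interval -0.54 to 0.29, adjusted p = 0.720).

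Lin28a, the cytoplasmic paralogue and a classic ESC gene, was at 743, 651 and 702 CPM in WT. It was at 507 and 565 CPM in the KO, 386 and 626 CPM in the Hmga1 add-back and 372 and 547 CPM in the Hmga2 add-back. All 6 mutant libraries, from the KO line and the add-backs made in it, lie below the 3 WT libraries. WT replicate c has no mutant library in its batch. As for every such separation given here, the share of all genes that separate alike was not counted. Batch a was the lower of each mutant pair. Within it the mutants held 50.1% to 68.2% of WT, and within batch b 84.0% to 96.2%. The log2 differences from WT were -0.40 (SE 0.20, adjusted p = 0.445), -0.51 (SE 0.20, adjusted p = 0.342) and -0.64 (SE 0.20, adjusted p = 0.195). They depend on the WT libraries: without WT replicate a they were -0.03, -0.17 and -0.28, and without WT replicate b -0.70, -0.83 and -0.95, none called. In the full deletion Lin28a was at 401, 409 and 403 CPM, inside the WT 2 range of 359 to 474 CPM, with a log2 difference of -0.10 (95% interval -0.41 to 0.22, adjusted p = 0.613). WT 2 replicate b is the low library there; without it the difference was -0.21 with an adjusted p of 0.00167. Lin28b made up 4.88% to 8.07% of the summed Lin28 RPKM in WT libraries and 4.36% to 7.38% in the mutants of that experiment.

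**Figure D4:**
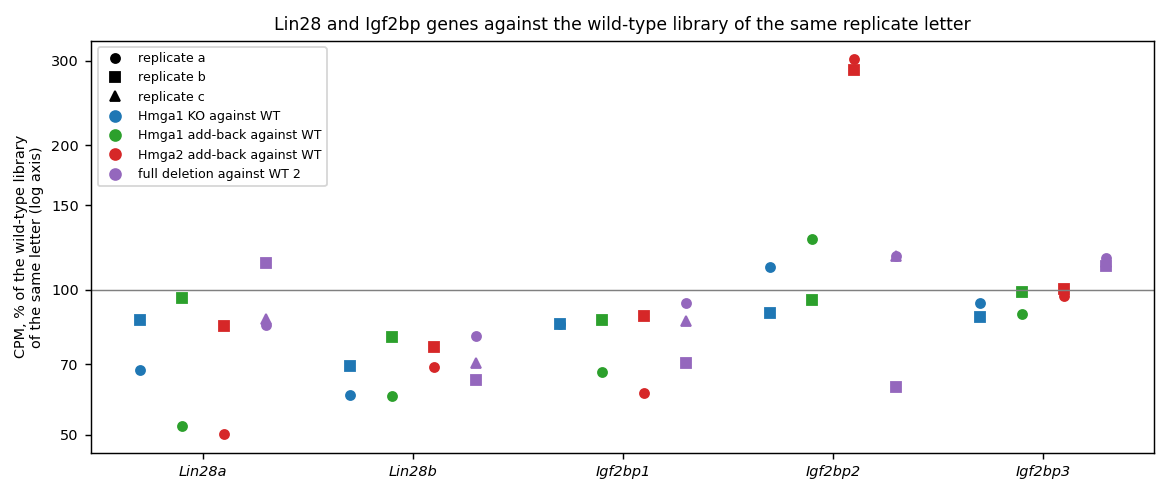
CPM of the Lin28 and Igf2bp genes as a percentage of the wild type library with the same replicate letter (log axis); colours give the comparison and shapes the letter. In the full deletion experiment the letters do not pair samples and set only which libraries are divided. Lin28b lies at 60.1% to 79.8% in the KO experiment, and Igf2bp2 in the Hmga2 add-back lies at 302% and 287%.

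Igf2bp2 was the member outside the Hmga genes that changed. This Igf2bp paralogue is known as a gene that Hmga2 switches on in other cells. It was at 120, 149 and 99.7 CPM in WT, 134 and 134 CPM in the KO, 153 and 143 CPM in the Hmga1 add-back, and 363 and 429 CPM in the Hmga2 add-back. The Hmga2 add-back libraries lie above all 7 others with no overlap, at 302% and 287% of the WT library of their batch, 270% and 320% of the KO library, and 236% and 300.498% of the Hmga1 add-back library. Igf2bp2 and Hmga2 made 2 of 7 members called against WT, beside 0.0647% of all genes (9 genes). Without WT replicate b 105 genes were called, 3 of them members.

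The log2 change of Igf2bp2 over WT was 1.56 (SE 0.13, 95% interval 1.26 to 1.86, adjusted p = 0.00333). It was 1.56 over the KO (SE 0.13, adjusted p = 0.0117) and 1.41 over the Hmga1 add-back (SE 0.13, adjusted p = 0.0244), neither past 0.01. Over WT the size ran from 1.44 to 1.69 when each library was left out. The call was lost without WT replicate a (adjusted p = 0.0283), KO replicate a (0.0262), KO replicate b (0.0204), Hmga2 add-back replicate a (0.0348) or Hmga2 add-back replicate b (0.0605), and in a model with no replicate block (0.0206). Where a KO or add-back library is left out, the lone library of its group is assumed to vary like the others. All these values come from 1 Hmga2 add-back clone.

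The KO and the Hmga1 add-back gave no such level: the log2 difference of Igf2bp2 from WT was 0.00094 in the KO (95% interval -0.29 to 0.29, adjusted p = 0.998) and 0.15 in the Hmga1 add-back (95% interval -0.15 to 0.44, adjusted p = 0.626). For the deletion, Igf2bp2 was at 231, 220 and 229 CPM against 197, 350 and 194 CPM in WT 2. The deletion libraries lie between the wild type ones, with a log2 difference of -0.12 (95% interval -0.66 to 0.41, adjusted p = 0.704). Without WT 2 replicate b, the high library, the sign turned to 0.21 (adjusted p = 0.00360), under 2-fold.

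Igf2bp1, the most abundant of the family per length in WT, was at 1232, 1155 and 931 CPM in WT, 1046 and 982 CPM in the KO, 830 and 998 CPM in the Hmga1 add-back, and 753 and 1019 CPM in the Hmga2 add-back. The mutant libraries overlap the WT range, and within batches they held 61.1% to 88.2% of WT. The log2 differences were -0.23 (SE 0.15, adjusted p = 0.559), -0.39 (SE 0.15, adjusted p = 0.340) and -0.44 (SE 0.15, adjusted p = 0.224). In the full deletion it was at 924, 870 and 904 CPM, below the 983, 1235 and 1051 CPM of WT 2, with a log2 difference of -0.28 (SE 0.13, adjusted p = 0.171); without WT 2 replicate b this was -0.18 (adjusted p = 0.00892).

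Igf2bp3, the paralogue best known from tumours, had no called difference. Its group means lay between 96.1 and 113 CPM in all 6 groups. The log2 difference was -0.14 in the KO (95% interval -0.38 to 0.11, adjusted p = 0.628), -0.02 in the Hmga2 add-back (95% interval -0.26 to 0.23, adjusted p = 0.948) and 0.19 in the full deletion (95% interval -0.01 to 0.40, adjusted p = 0.151). In the deletion all 3 libraries (113, 106 and 111 CPM) lie above the WT 2 libraries (96.7, 94.9 and 96.8 CPM). Without WT 2 replicate b the difference was 0.18 (adjusted p = 0.0165), and with summed counts as the only scaling it was 0.48 (adjusted p = 0.0707).

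Shares within a family do not depend on how libraries are scaled, but they depend on the exonic lengths used. Igf2bp2 was 15.6% to 19.2% of the summed Igf2bp RPKM in WT, 19.4% and 19.9% in the KO, 25.4% and 20.5% in the Hmga1 add-back, and 46.4% and 43.1% in the Hmga2 add-back. Shares of a family add up to the whole, so a higher Igf2bp2 share lowers the others. The Igf2bp1 share was 70.8% to 76.4% in WT and 46.0% and 49.0% in the Hmga2 add-back. There Igf2bp1 and Igf2bp2 stood at about the same level per length. Igf2bp1 itself differed there by -0.44 log2 from WT, -0.21 from the KO and -0.05 from the Hmga1 add-back, none called. In WT 2 the Igf2bp2 share was 25.6% to 35.0% and in the full deletion 31.1% to 31.3%, inside that range, but the 35.0% is WT 2 replicate b. Without it WT 2 was at 25.6% and 27.1%, and the deletion libraries lie above both.

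Hmga2 was 2.173% to 3.32% of the summed Hmga1 and Hmga2 RPKM in WT and 4.01% and 6.45% in the KO. It was 46.3% and 51.2% in the Hmga2 add-back and 44.8% to 48.0% in the full deletion. The similar shares stand on different totals. The summed Hmga RPKM was 101 and 126 in the Hmga2 add-back and 10.2 to 11.4 in the full deletion. It was 155 to 178 in WT 2 (177 and 178 without replicate b). These values divide by the full exonic length, 4276 bases for Hmga2, of which 327 are coding. If the transgene carries the coding part alone, the share and the sum are understated in the Hmga2 add-back. Their closeness to the values of other groups depends on that length.

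**Figure D5:**
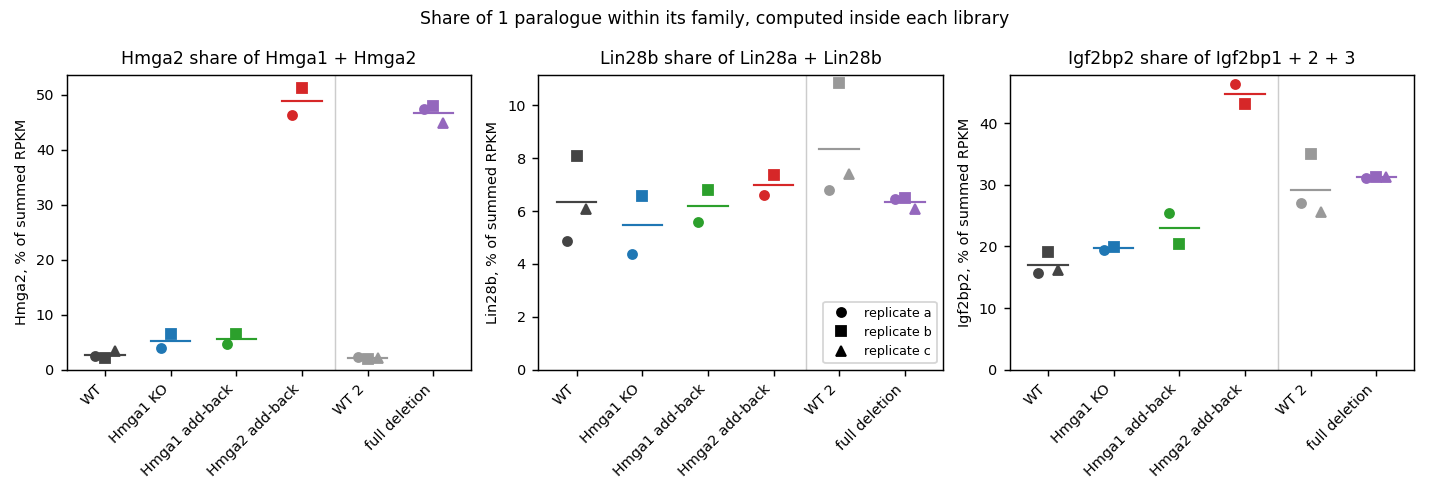
Share of Hmga2, Lin28b and Igf2bp2 in the summed RPKM of their family, inside each library (points) with group means (bars). Axes start at 0. RPKM uses full exonic lengths, which understates Hmga2 in the Hmga2 add-back if the transgene carries the coding part alone. The Igf2bp2 share is 46.4% and 43.1% in the Hmga2 add-back against 15.6% to 25.4% in the other libraries of that experiment.

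Between the add-backs and the KO, no member other than Hmga2 was called by the main test, and Igf2bp2 was past the threshold in the Hmga2 add-back against the KO by DESeq2 and limma-trend (adjusted p = 1.18e-20 and 0.00924). The Hmga1 add-back against the KO called 0 of 7, as of all genes (0%); by edgeR at an unadjusted p under 0.05 it reached 0 of 7, against 2.8% of all genes, and DESeq2 and limma-trend also called 0. The Hmga1 add-back against WT called 0 of 7 (0.0144% of all genes, 2 genes, or 37 without WT replicate b). At an unadjusted p under 0.05 it reached 4 of 7 (13.3% of all genes). DESeq2 called 1 member (Hmga1) among 76 genes in all, and limma-trend 0 members among 2 genes.

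Whether the KO and the full deletion acted alike was tested in 1 model over all 15 libraries. Hmga1 itself differed by 3.58 log2 (SE 0.22, adjusted p = 1.98e-05) and was the 1 member called, against 0.0951% of 13671 genes. For the other 6 the difference of the effects was between -0.60 and 0.14 log2, with adjusted p from 0.255 to 0.902. The intervals are wide: for Igf2bp2 -0.56 to 0.84, for Lin28a -0.86 to 0.27 and for Igf2bp3 -0.63 to -0.0013. Without WT 2 replicate b the differences ran from -0.48 to -0.02 log2, those of Igf2bp1 (-0.02) and Igf2bp2 (-0.17) having turned sign.

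The machinery around let-7 was read from 17 genes of its maturation and decay, all 17 tested. None passed the threshold in any comparison. Against WT, the KO ranged from Prkra (0.24 log2, a partner of Dicer) and Zcchc6 (0.16, a terminal uridylyl transferase, also called Tut7) to Drosha (-0.18, the nuclear nuclease that frees the precursor) and Ago2 (-0.24, the effector). In the Hmga2 add-back Zcchc6 (0.45) and Dis3l2 (0.36, the nuclease that degrades uridylated let-7 precursors) were highest and Xpo5 (-0.25) and Trim71 (-0.27) lowest. The full deletion had Prkra (0.65) and Ago2 (0.44) highest and Dgcr8 (-0.57) and Hnrnpa1 (-0.68) lowest, and without WT 2 replicate b these were 0.34, 0.27, -0.36 and -0.36. The medians were -0.09, -0.05 and -0.14 log2, against -0.0082, -0.0027 and 0.04 over all genes tested.

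Of 24 other reported let-7 targets, 23 were tested and 0 passed in each comparison with wild type. Below 0 were 18 of 23 in the KO, 19 of 23 in the Hmga1 add-back, 16 of 23 in the Hmga2 add-back and 14 of 23 in the full deletion (16 of 23 without WT 2 replicate b), with medians of -0.20, -0.12, -0.20 and -0.13 log2. Of all genes tested, 51.4%, 49.96%, 50.4% and 46.6% were below 0. The lowest were Fign (-1.66, adjusted p = 0.0842) and Ccnd2 (-1.42, adjusted p = 0.141) in the KO, the same genes in the Hmga2 add-back (-1.02 and -0.98), and Cdc25a (-1.20, adjusted p = 0.0752) and Myc (-0.77, adjusted p = 0.0188) in the full deletion. Cdc25a was at 471 CPM in the highest WT 2 library and 160 CPM in the lowest; without WT 2 replicate b its difference was -0.56 (adjusted p = 2.63e-06) and that of Myc -0.75 (1.88e-06). The highest were Nr6a1 (0.21) and Igf1r (0.20) in the KO, Insr (0.26) and Irs2 (0.15) in the Hmga2 add-back, and Irs2 (1.14, adjusted p = 0.0241) and Plagl2 (0.50) in the full deletion. Without WT 2 replicate b, Irs2, an adaptor of the insulin receptor, was called (1.06, adjusted p = 2.69e-05), the 1 of 23 that was, and Plagl2 was at 0.28. Ccnd2 encodes a G1 cyclin and Cdc25a a cell cycle phosphatase.

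Of 9 RNAs that Igf2bp proteins bind, 0 passed in any comparison. In the Hmga2 add-back, where Igf2bp2 was high, 8 of 9 were below 0 against WT, from Cd44 (0.73) and H19 (-0.20) to Mapk4 (-0.90) and Myc (-0.91), with a median of -0.31 log2; in the KO, where Igf2bp2 was at the WT level, 9 of 9 were below 0, from Tubb5 (-0.06) and H19 (-0.10) to Mapk4 (-0.66) and Cd44 (-1.19), with a median of -0.28. In the Hmga1 add-back 8 of 9 were below 0, with a median of -0.27. The median in the deletion was -0.0016 (-0.06 without WT 2 replicate b), from Mapk4 (0.38) and Fscn1 (0.27) to Igf2 (-0.28) and Myc (-0.77); without that library these were 0.25, 0.03, -0.06 and -0.75. Of 9 genes reported as Hmga2 targets, a list that holds Igf2bp2, that gene alone was called, in the Hmga2 add-back. There Cdkn1a, the p21 cell cycle inhibitor, was next (0.91, adjusted p = 0.302), and Ercc1 (-0.37) and Cdkn2a (-0.76) were lowest. In the KO the list ran from Cdkn1a (0.48) and Igf2bp2 (0.00094) to Cdkn2b (-1.20) and Cdkn2a (-1.34), and in the full deletion from Cdkn1a (0.97) and Junb (0.65) to Ccna2 (-0.47) and Cdkn2a (-0.66). Without WT 2 replicate b these were 0.72, 0.43, -0.34 and -0.82, none past the threshold.

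The genes whose pattern came closest to that of Hmga2 over the 8 libraries of batches a and b, after taking out the batch mean, were Tubb2a-ps2 (Pearson r = 0.99), Akr1b10 (0.99), Igf2bp2 (0.98), Zfp317 (0.97) and Tbc1d32 (0.94). For Igf2bp2 they were Hmga2 (0.98), Tubb2a-ps2 (0.97), Akr1b10 (0.96), Clock (0.96) and Azi2 (0.96). The 8 libraries share batches and both Hmga2 and Igf2bp2 were highest in the 2 Hmga2 add-back libraries. Tubb2a-ps2 is a pseudogene whose reads may be shared with its parent gene. For Hmga1 the closest were Ube2j1, Ttll4, Armc9, Arid1b and Wt1 (0.97 each). Closest to Lin28a were Ube3a (0.998), Fam169a (0.996) and Fam32a (0.995), to Lin28b Zfp280c, Kcnj3 and Cr1l (0.99 each), to Igf2bp1 Wbscr22, Zbtb45 and Fiz1 (0.99 each), and to Igf2bp3 Rufy3 (0.99), N6amt1 (0.99) and Abcb1b (0.96).

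The 8 stem cell markers of the labelled cell type summed to 4022 to 7421 CPM over all libraries. All 8 were above 1 CPM in every group, a bar that all 6 primitive endoderm markers also passed in WT. In bulk RNA, fewer cells of a type and less RNA per cell cannot be told apart. The 8 markers of feeder fibroblasts, on which the cells can be grown, summed to 2.21 to 13.2 CPM in all libraries, with Thy1 the 1 marker whose group means were above 1 CPM. Thy1 averaged 9.97 CPM in the Hmga2 add-back against 4.003 CPM in WT (log2 difference 1.22, adjusted p = 0.141) and Col1a1 0.69996 against 0.419 CPM, while Postn, Lum and Dcn, at 0.0553 CPM or less on average in WT, were at 0 in the Hmga2 add-back. That sum was 8.87 to 13.2 CPM in the Hmga2 add-back and 3.49 to 7.65 CPM in WT, beside the 363 and 429 CPM of Igf2bp2. Summed levels of other marker lists differed between the groups. The 6 primed epiblast markers summed to 591 to 604 CPM in WT, 465 to 478 in the KO, 316 to 490 in the Hmga1 add-back and 262 to 405 in the Hmga2 add-back. Most of that sum was Dnmt3a (321 CPM in WT, 212 in the KO) and Dnmt3b (235 and 200.4 CPM), while Otx2 was at 18.4 CPM in WT and 32.7 CPM in the KO. The 6 primitive endoderm markers summed to 37.0 to 106 CPM in WT, 9.32 to 29.9 in the KO, 23.3 to 64.6 in the Hmga1 add-back and 20.4 to 25.7 in the Hmga2 add-back. No gene of either list was called in these comparisons. The 6 neural progenitor markers summed to 62.5 to 80.5 CPM in WT and 34.7 to 52.3 CPM in the mutants of that experiment, and the 4 mesoderm markers to 1.65 to 8.26 CPM over all libraries. The part of these cells in the Lin28 and Igf2bp values was not tested.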

How the data were processed

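Total RNA was depleted of ribosomal RNA, made into strand-specific libraries (ScriptSeq v2) and sequenced as single-end reads. Per the labels and methods, the authors demultiplexed with bcl2fastq 2.17, aligned with Bowtie through QuasR to mm9, allowed reads with several hits at 1 random place, and counted same-strand reads over knownGene exons; they deposited raw counts per gene, unnormalised, in a table for each experiment (21662 genes each).

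From these counts, edgeR 4.0.16 (R 4.3.3) was run with TMM scaling on genes that averaged 10 or more counts, adjusting p-values over all genes; called genes had an adjusted p under 0.01 and at least a 2-fold change. The KO experiment (9 libraries) was fitted with the replicate letter as batch, since the methods name a batch of library preparation and flow cell there and the paper calls a, b and c batches; deviations from the group means of same-letter libraries correlated at 0.319 to 0.758. Batch c held WT replicate c alone, so its batch term took up that library. Fitted differences from WT in that experiment thus rest on WT replicates a and b. The letters of the full deletion experiment (6 libraries) did not pair samples (-0.0546 to 0.0703) and were left out. The joint model held the letter within the KO experiment. RPKM used the deposited exonic lengths. Alternatives were DESeq2 1.42.0, limma-trend (limma 3.58.1), other scalings, filters and blocks, and leaving out each library; the model was tested on simulated data. Depth limits the precision of Hmga2 (165 to 752 counts in WT).

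The 7 genes are named in every comparison; of each gene list, genes past the threshold and the 2 highest and 2 lowest with a mean of at least 1 CPM, in the KO, the Hmga2 add-back and the full deletion; of the most like genes, 5 or 3 by Pearson r among 11638. Members and lists were chosen with earlier results of these data known. The guides are not used here.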

Additional observations from a re-analysis of the deposited data

Results flagged for a closer look

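The effect on Hmga1 RNA differed between the lines that lost it. The KO lay at -1.29 log2 of WT (SE 0.17) and the full deletion at -4.86 log2 of WT 2 (SE 0.13). The interaction term of the joint model put the difference at 3.58 log2 (SE 0.22, adjusted p = 1.98e-05), and it was 3.67 without WT 2 replicate b. The alleles differ by design, since the full deletion lacks the coding sequence, and allele, clone and experiment cannot be told apart. From splice junctions and PCR, the paper reports that the KO still makes a shorter Hmga1 transcript, without the targeted exon. The part of that transcript in the counts was not tested. No group holds 4 or more libraries, so no single library was tested against its group.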

How the results depend on the processing

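Across 38 single-gene log2 differences and 8 counts of members called, 724 alternative values were computed. Of those for the differences, 537 kept their direction and side of the threshold. Of those for the counts, 105 matched the main count or came close to it. For this, 3 members in place of 2 was taken as close. With no replicate block the Hmga2 add-back against WT called 1 member, not 2 (Igf2bp2, adjusted p = 0.0206), and Hmga1 in the Hmga1 add-back against the KO turned to -0.030; the block in the full deletion experiment changed no call. Hmga1 gave 1 member in the KO without the low-count filter (17 genes called in all) and with DESeq2 (76 genes). It gave 1 in the Hmga1 add-back against WT with DESeq2 (76 genes). Igf2bp2 raised the count to 2 in the Hmga2 add-back against the KO at an adjusted p under 0.05, without the filter, with DESeq2 and with limma-trend, and to 2 against the Hmga1 add-back at an adjusted p under 0.05, without the filter, with DESeq2 and with only the groups compared. Leaving out each library gave 1 to 3 members in the Hmga2 add-back against WT, 0 to 2 against the KO and 0 to 1 against the Hmga1 add-back; 1 member, Hmga1, was called in the full deletion and in the joint model under every alternative run.

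Signs turned only for differences that were not called. Igf2bp2 in the KO was -0.0086 with DESeq2's size factors and -0.0084 with its Wald test. Igf2bp3 in the Hmga2 add-back was 0.038 with summed counts as the only scaling and 0.0024 with a mean count of at least 50. With summed counts the full deletion gave 0.17 for Lin28a, 0.024 for Igf2bp1 and 0.21 for Igf2bp2, and the joint model -0.25 for Igf2bp1 and -0.20 for Igf2bp2. Leaving out each library gave -0.43 to 0.26 for Hmga2 in the KO, -0.12 to 0.14 and -0.014 to 0.29 for Igf2bp2 in the KO and the Hmga1 add-back, -0.034 to 0.013 for Igf2bp3 in the Hmga2 add-back, -0.23 to 0.33 for Hmga1 in the Hmga1 add-back against the KO, and -0.27 to 0.21 for Igf2bp2 in the full deletion. Without WT 2 replicate b, a fit chosen after seeing the data, the joint model gave -0.022 for Igf2bp1 and -0.17 for Igf2bp2, and the full deletion called 362 genes against 9, among them Irs2 of the gene lists of let-7 and Igf2bp. The cause was not tested. A count of Hmga1 that allows for reads aligning in several places was not run. Depth limits Hmga2, the member with the fewest counts.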

Other observations

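Reads on let-7 genes were few. The 12 let-7 rows in the tables summed to 27 to 232 counts per library; Mir98 held 12 to 51 counts in every library, Mirlet7a-1 0 to 164, and Mirlet7b, Mirlet7c-1 and Mirlet7a-2 were at 0 in all 15. These libraries were not made from small RNA, and mature let-7 was not measured.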
